A study of Mus musculus with 9 samples.

Results

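At postnatal day 0, the cerebral cortex of Fezf2-/- mice was compared between litters: 2 libraries of litter m3 (bc204 and bc207) against 2 libraries of litter m1 (bc205 and bc206). Each library held polyadenylated RNA from the paired cortical hemispheres of 1 pup. All 4 libraries shared the genotype, the age and the tissue, so that litter was the labelled difference between them. The Fezf2- allele is a null allele that carries an alkaline phosphatase reporter; no Fezf2-EnR transgene was present in these 4 pups. They were taken from a series of 9 libraries, of which the other 5 came from 3 Fezf2+/+ pups (2 of litter m1, 1 of litter m2) and from 2 Fezf2-/-; Fezf2-EnR pups (1 of litter m3, 1 of litter m2), in which a BAC transgene expresses FEZF2 fused to the Engrailed repressor domain. Of the 24624 genes in the deposited table, 16222 had a mean normalised count of at least 10 over the 4 Fezf2-/- libraries and were tested; the table gave 18716575 to 25127623 reads for these libraries. Fezf2 itself, the targeted gene, stood at 193 and 242 in litter m1 and at 223 and 209 in litter m3, against 907 to 1232 in the other 5 libraries. The pups of a litter were sequenced as separate libraries, and the p-values measure the spread between them. Bulk RNA cannot tell fewer cells of a type apart from less RNA per cell.

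A litter is a group of pups born to the same mother, which share their day of birth, the day of dissection and, in a colony that is not fully inbred, alleles of their parents. Newborn cortex is changing quickly: projection neurons are leaving the immature state marked by tubulin and doublecortin genes, progenitors are giving way to glia, and blood vessels still invade the tissue. The transcripts that are known to vary between closely related mice are of another kind, and include the polymorphic class I genes of the major histocompatibility complex (MHC), which display peptides to T cells, and processed pseudogenes, which are copies of an mRNA pasted back into the genome.

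The sequences that matter most here belong to both kinds. H2-K1 and H2-D1 encode the classical class I heavy chains, and both fell in litter m3. The 300 bases from 250 before to 50 after their start sites (RefSeq, GRCm38.p6) lie at chr17:34000298-34000597 on the minus strand and at chr17:35262844-35263143 on the plus strand. Each contains the kappaB element of class I promoters, whose letters are shown in capitals below. Searched on both strands, these letters were present in 10 of 32851 promoters (0.0304%).
H2-K1: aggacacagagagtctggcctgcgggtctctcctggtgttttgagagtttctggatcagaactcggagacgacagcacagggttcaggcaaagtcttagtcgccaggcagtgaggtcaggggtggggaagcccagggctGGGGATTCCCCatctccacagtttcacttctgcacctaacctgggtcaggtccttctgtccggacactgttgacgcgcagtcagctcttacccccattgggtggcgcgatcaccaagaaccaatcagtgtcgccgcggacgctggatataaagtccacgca
H2-D1: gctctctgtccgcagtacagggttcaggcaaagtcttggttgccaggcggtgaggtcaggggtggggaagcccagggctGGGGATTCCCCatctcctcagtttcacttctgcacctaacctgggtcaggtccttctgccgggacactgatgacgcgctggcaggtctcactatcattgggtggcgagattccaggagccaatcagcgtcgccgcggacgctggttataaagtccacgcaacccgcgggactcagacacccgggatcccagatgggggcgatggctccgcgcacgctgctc

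Hspa1a and Hspa1b, the stress-inducible HSP70 genes, lie between these MHC genes and fell as well. Their promoters (chr17:34972107-34972406 and chr17:34959189-34959488, both on the minus strand) were identical at 296 of 300 bases (98.7%). They are shown because the genes are near-copies whose reads are hard to assign, and capitals mark the 4 bases that differ.
Hspa1a: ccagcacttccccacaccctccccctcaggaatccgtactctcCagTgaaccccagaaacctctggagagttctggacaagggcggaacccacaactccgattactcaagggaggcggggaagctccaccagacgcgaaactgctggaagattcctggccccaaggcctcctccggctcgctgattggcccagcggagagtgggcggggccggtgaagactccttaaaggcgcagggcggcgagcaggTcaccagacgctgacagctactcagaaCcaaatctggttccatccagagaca
Hspa1b: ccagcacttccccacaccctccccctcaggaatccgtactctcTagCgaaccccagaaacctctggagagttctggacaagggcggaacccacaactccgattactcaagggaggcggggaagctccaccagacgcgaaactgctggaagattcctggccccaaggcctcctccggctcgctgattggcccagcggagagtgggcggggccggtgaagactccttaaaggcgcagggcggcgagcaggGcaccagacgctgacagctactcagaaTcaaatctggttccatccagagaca

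Few genes were called between the litters, a count that 2 libraries per litter limit. At an adjusted p under 0.05 (limma on log2(value + 1)), 71 of 16222 genes were called (0.438%), 36 higher in litter m3 (0.222%) and 35 lower (0.216%). The largest fall was that of BC023719, an antisense transcript beside the class I gene H2-T10, and the largest rise among genes with a mean of at least 50 was that of Rpsa-ps10, a processed pseudogene of the ribosomal protein gene Rpsa. With 2 libraries per litter a call requires a large difference, so the called genes were selected for size. Their absolute log2 difference had a median of 1.23 and a minimum of 0.49, against a median of 0.13 over all genes tested. Of the 71, 42 exceeded 2-fold. Of the 71 genes, 70 were also called by edgeR, which called 74 (0.456%), and 71 by DESeq2, which called 238 (1.47%). At an unadjusted p under 0.05, where a share of 0.05 is expected with no difference, 2568 genes differed (15.8%). Of these, 1506 were higher (9.28% of all tested genes) and 1062 lower (6.55%). For 7775 genes (47.9%), the values of the litters did not overlap, where random order of the libraries alone gives a share of 0.333. The exact permutation test of a single gene cannot go below p = 0.333 with 2 libraries against 2.

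The genes that fell together in litter m3 lay in the MHC. From H2-K1 to BC023719, on chromosome 17 from 33996017 to 36117121 (GRCm38), 6 genes were called and all 6 were lower in litter m3, while chromosome 17 had no other call. H2-K1 stood at 161 and 204 in litter m1 and at 46.2 and 37.4 in litter m3, a log2 difference of -2.10 ± 0.19 (SE; adjusted p = 0.0132). The litters did not overlap, and the level in litter m3 was below that in every library of litters m1 and m2, whatever the genotype. H2-D1 stood at 956 and 1369 against 484 and 425 (-1.33 ± 0.17, adjusted p = 0.0303). The 2 Fezf2+/+ libraries of litter m1 held 1115 and 1289 of H2-D1, the 2 libraries of litter m2 held 770 and 595, and the Fezf2-/-; Fezf2-EnR library of litter m3 held 372.

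BC023719 was nearly absent in litter m3: it stood at 196 and 383 in litter m1 and at 1.0 and 1.66 in litter m3 (-6.90 ± 0.37, adjusted p = 0.00225). The Fezf2-/-; Fezf2-EnR library of litter m3 held 2.99, and the other 4 libraries of litters m1 and m2 held 201 to 401. It overlaps H2-T10 and H2-T-ps in the annotation, and since the use of strand in the counting is not stated, reads of these overlapping genes cannot be told apart. Aif1, which encodes the calcium-binding protein IBA1 of microglia, lies between Hspa1a and H2-D1. It stood at 63.2 and 73.0 in litter m1 and at 8.03 and 8.31 in litter m3 (-2.91 ± 0.25, adjusted p = 0.00987). None of the other 12 microglia markers was called, and the summed level of the 13 markers was 2161 and 2004 in litter m1 and 2162 and 2098 in litter m3. Aif1 was the one microglia marker called.

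Hspa1b stood at 215 and 339 in litter m1 and at 28.1 and 50.7 in litter m3 (-2.80 ± 0.32, adjusted p = 0.0208). Hspa1a stood at 95.9 and 112 against 20.1 and 28.2 (-2.07 ± 0.23, adjusted p = 0.0208). The summed level of this pair of near-copies was 311 and 450 in litter m1 and 48.2 and 78.9 in litter m3, so that both copies were low together. The other 9 tested heat shock genes were not called: Hspa8, the constitutive HSP70, stood at 24584 and 23544 against 31737 and 27704 (0.30 ± 0.10, adjusted p = 0.226), and Dnajb1, its co-chaperone, at 1158 and 1173 against 1050 and 963.

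The rest of the segment had no call. The bounds of the segment were set by its called genes. The other 75 tested genes had a median log2 difference of -0.02, and 44 of them were lower in litter m3 (49.3% of all tested genes were). At an unadjusted p under 0.05, 8 were lower and 7 higher, where 6.55% of all tested genes were lower and 9.28% higher. H2-Q4, a further class I gene, stood at 31.6 and 45.9 against 17.1 and 13.3 (-1.28 ± 0.30, adjusted p = 0.131). B2m, the class I light chain, which lies on another chromosome, stood at 212 and 195 against 290 and 272 (0.46 ± 0.11, adjusted p = 0.134), opposite in sign to H2-K1 and H2-D1. Of the 9 listed MHC class I genes, 6 were tested, 2 were called and 3 had a positive difference. The 4 tested interferon response genes were all lower, at a median of -0.28, and none was called.

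**Figure D1:**
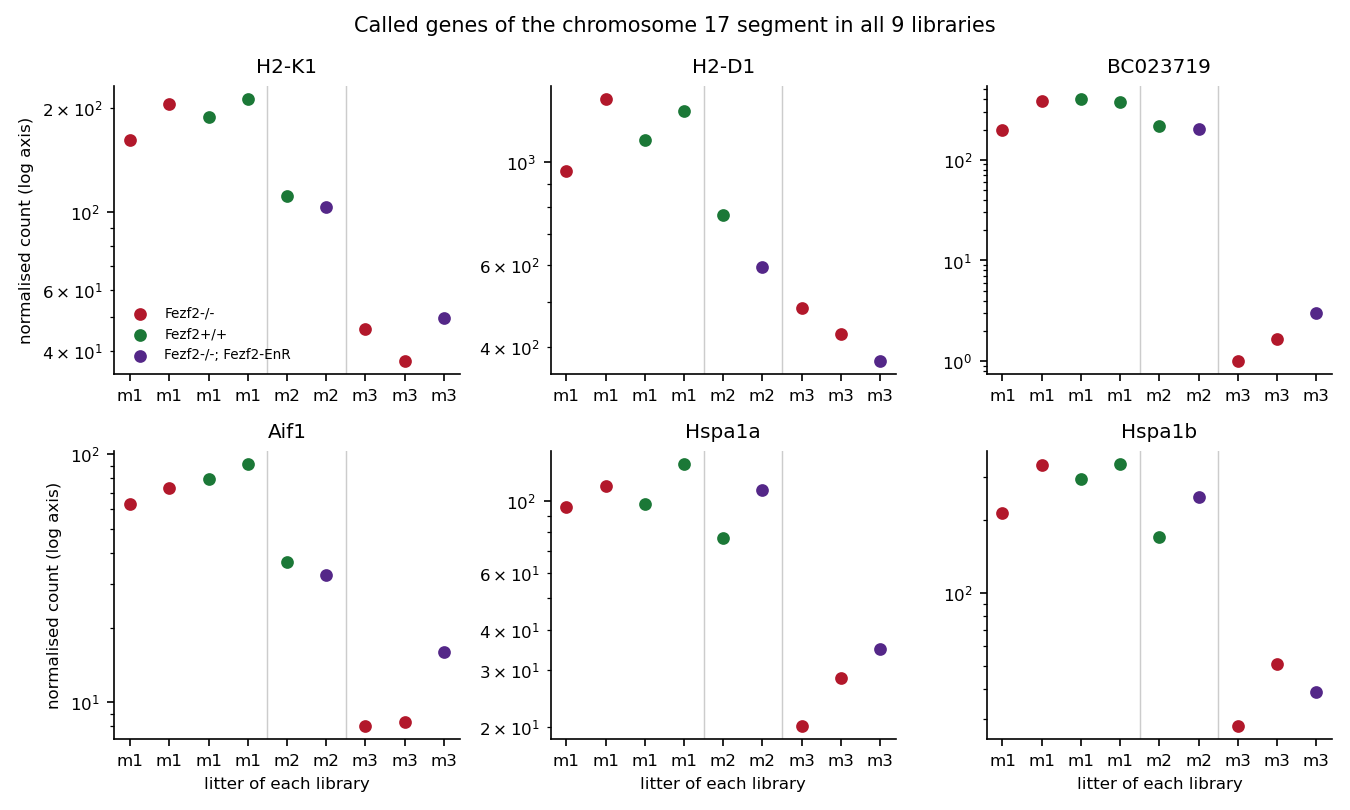
Normalised count (log axis) of the 6 called genes of the chromosome 17 segment in each of the 9 libraries, ordered by litter along the x axis and coloured by genotype. In all 6 panels the 3 libraries of litter m3 are the lowest; for H2-K1, H2-D1 and Aif1 the 2 libraries of litter m2 lie between those of m1 and m3.

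A large share of the called genes had a near-copy elsewhere in the genome. For each gene, the share of the 50-base windows of its longest transcript (GENCODE M21) that also occur in the longest transcript of another gene was computed. It was 50% or more for 22 of the 71 called genes (31.0%), against 8.53% of the tested genes. Among the 23 called genes that differed by more than 4-fold, 11 were of this kind. The levels of such genes are uncertain, since the counting could split their reads between the copies.

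Rpsa-ps10, on chromosome 3 from 150072658 to 150073542, was the clearest case. It stood at 217 and 215 in litter m1 and at 3288 and 2925 in litter m3 (3.84 ± 0.08, adjusted p = 1.4e-05), while its parent Rpsa, a protein of the small ribosomal subunit encoded on chromosome 9, stood at 11703 and 11572 against 10121 and 8886 (-0.30 ± 0.09, adjusted p = 0.185). The pseudogene was identical to the coding part of Rpsa at 879 of 885 bases (99.3%). The first 120 coding bases are shown for both (from the GENCODE transcripts), with the single differing base in capitals, to show how little separates the reads.
Rpsa: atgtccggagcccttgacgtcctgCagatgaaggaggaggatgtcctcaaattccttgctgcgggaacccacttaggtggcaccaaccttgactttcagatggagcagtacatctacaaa
Rpsa-ps10: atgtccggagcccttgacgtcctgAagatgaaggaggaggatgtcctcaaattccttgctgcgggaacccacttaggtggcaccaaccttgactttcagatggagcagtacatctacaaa

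The sum of Rpsa and Rpsa-ps10 was 11920 and 11787 in litter m1 and 13409 and 11810 in litter m3, a log2 difference of 0.09. A further 4 pairs showed the same in the Fezf2-/- libraries, with a called member and a partner on the other side. Pcna-ps2, a pseudogene of the replication clamp gene Pcna, fell from 355 and 361 to 167 and 139 (-1.23 ± 0.12, adjusted p = 0.0168). Pcna stood at 1009 and 1032 against 1396 and 1246, and the sum differed by 0.09. Eif3j2 fell from 556 and 692 to 251 and 265 (-1.26 ± 0.12), its paralog Eif3j1, which encodes the same translation initiation subunit, stood at 1131 and 1194 against 1543 and 1579, and the sum differed by 0.03. BC002163, a pseudogene of the respiratory chain gene Ndufs5, fell from 437 and 266 to 58.3 and 66.5 (-2.44 ± 0.23), and the sum with Ndufs5 differed by 0.01. Gm4737 rose from 108 and 81.3 to 238 and 336 (1.58 ± 0.21), and the sum with its partner Ahcy, which hydrolyses adenosylhomocysteine, differed by -0.10. None of the 5 partners named here was called. In the other genotypes Rpsa-ps10 differed likewise, at 204 and 242 in the Fezf2+/+ libraries of litter m1 and 3032 in the Fezf2-/-; Fezf2-EnR library of litter m3. For the other 4 copies the difference between these libraries was smaller or reversed. BC002163 stood at 65.9 and 79.96, then at 65.71, and Gm4737 at 249 and 370, then at 119. Eif3j2 stood at 646 and 660, then at 595, and Pcna-ps2 at 352 and 403, then at 326.

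Such copies are close in sequence throughout: Pcna-ps2 was identical to the coding part of Pcna at 775 of 781 bases (99.2%). Rpl35a, a protein of the large ribosomal subunit, fell from 1926 and 1883 to 1397 and 1300 (-0.50 ± 0.07, adjusted p = 0.0489), while 2 processed pseudogenes rose: Rpl35a-ps2 from 169 and 148 to 469 and 433 (1.5 ± 0.11) and Gm10029 from 74.1 and 64.6 to 193 and 184 (1.43 ± 0.14). Rpl35a-ps2 shared 71.1% of its windows with Rpl35a, and the 3 genes together differed by -0.10. It shared 100% with Rpl35a-ps6, its closest copy, and the sum of that pair differed by 1.35. The Fezf2+/+ libraries of litter m1 held 161 and 521 of Rpl35a-ps2 and 71.8 and 205 of Gm10029. Pups of a litter thus differed there by at least as much as the litters did. Rpl35a stood at 645 in the Fezf2-/-; Fezf2-EnR library of litter m3, below both Fezf2-/- libraries of that litter. Gm10260 and Gm11361, both on chromosome 13, carry sequence of Rps18, a protein of the small ribosomal subunit, with 28.9% and 45.0% of their windows shared. Gm10260 fell from 803 and 1338 to 28.1 and 35.7 (-4.99 ± 0.25) and Gm11361 from 267 and 417 to 87.4 and 77.3 (-2.01 ± 0.21). Rps18 stood at 3209 and 2237 against 3945 and 3405 (0.45 ± 0.16, adjusted p = 0.259), and the 3 genes together at 4279 and 3992 against 4061 and 3518, a log2 difference of -0.13. Both shared more windows with the pseudogene Rps18-ps3 (53.7% for Gm10260 and 55.4% for Gm11361). The sums with Rps18-ps3 still differed by -4.01 and -1.68, so the steady sum holds for Rps18 as the partner and not for the closest copy. Rpsa-ps9 rose from 46.9 and 55.3 to 157 and 151 (1.58 ± 0.16), and Gm7993, a processed pseudogene on chromosome 5, fell from 222 and 266 to 34.2 and 27.4 (-2.95 ± 0.18).

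Copies of 2 histone genes rose together. Hist1h2ao and Hist1h2ap, adjacent histone H2A genes on chromosome 13, rose from 4.36 and 8.34 to 101 and 120 (3.97 ± 0.32, adjusted p = 0.00858) and from 4.36 and 6.26 to 34.2 and 49.8 (2.76 ± 0.34, adjusted p = 0.0307). Their sum differed by 3.75, and the 3 libraries of litters m2 and m3 from other genotypes held 138 to 162 of Hist1h2ao, whereas the Fezf2+/+ libraries of litter m1 held 7.60 and 6.31. The other 13 tested histone genes were not called.

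**Figure D2:**
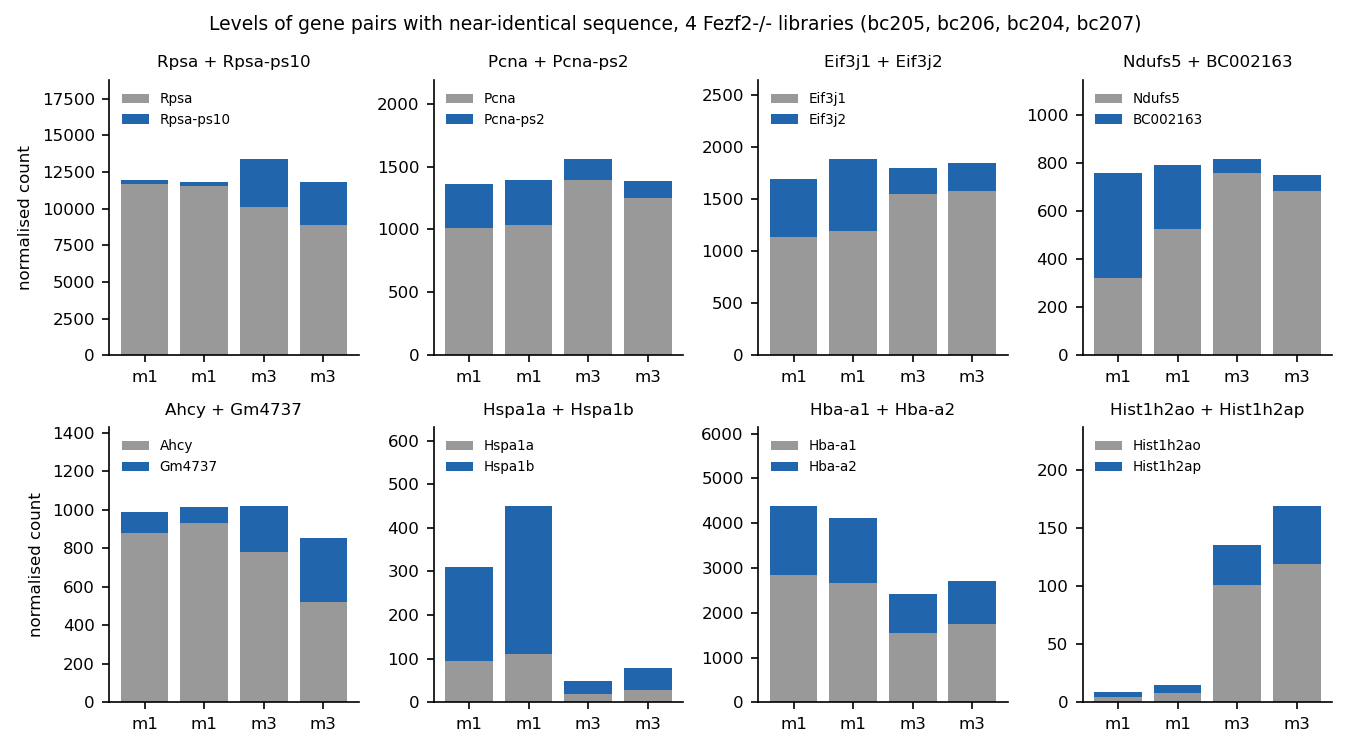
Stacked normalised counts of gene pairs with near-identical sequence (y axis; the grey and blue member are named in each panel) in the 4 Fezf2-/- libraries in the order bc205, bc206, bc204 and bc207. In the first 5 panels (Rpsa, Pcna, Eif3j1, Ndufs5 and Ahcy with their copies) the sums differ by at most 0.10 in log2 between the litters while the shares change; in the last 3 panels (Hspa1a and Hspa1b, Hba-a1 and Hba-a2, Hist1h2ao and Hist1h2ap) the sums change too.

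Called genes also lay beside each other outside the MHC. On chromosome 12, 6 called genes lay between 17900734 and 23010284. The long noncoding RNA 2410018L13Rik rose from 168 and 181 to 349 and 439 (1.16 ± 0.14) with its neighbour Gm49686, a pseudogene (71.9 and 87.6 to 166 and 191), while Gm9269 fell from 93.7 and 112 to 34.2 and 36.6 (-1.51 ± 0.19). 1 Fezf2+/+ library of litter m1 held 10.1 of 2410018L13Rik and its littermate 191, so that pups of a litter differed there by more than the litters did. Chromosome 8 carried 9 called genes of 835 tested, 8 of them higher in litter m3, a share of 1.08% against 0.438% over all chromosomes. Chromosomes 12 and 13 had shares of 1.09% and 1.39%. Clgn, a chaperone known from sperm cells, and Scoc, a coiled-coil protein of the Golgi, are close neighbours. Clgn rose from 90.4 and 86.5 to 254 and 272 (1.56 ± 0.12, adjusted p = 0.00805), and Scoc from 1400 and 1330 to 2788 and 3206 (1.13 ± 0.09, adjusted p = 0.00732). Dctd, the deoxycytidylate deaminase, rose on the same chromosome from 129 and 149 to 367 and 360 (1.38 ± 0.12, adjusted p = 0.00987). Gm42047, a long noncoding RNA of chromosome 8, was at 0 in both libraries of litter m1 and at 54.2 and 53.2 in litter m3. Against the 3 reads that a count of 0 allows per library, it was at least 16.8-fold higher. It shared 72.9% of its windows with another gene, so its level and this bound are uncertain. In litter m2 it stood at 36.9 in the Fezf2+/+ library and at 0 in the Fezf2-/-; Fezf2-EnR library. The Fezf2+/+ libraries of litter m1 held 0 and the Fezf2-/-; Fezf2-EnR library of litter m3 held 21.9. Chromosomes 6, 14 and X had no called gene; chromosome 14 carries Fezf2.

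The globin genes Hbb-bs, Hba-a1 and Hba-a2, which are transcribed in red blood cells, fell in litter m3. They were the 3 called genes of 7 tested red blood cell genes (0.216% of all tested genes were called lower). Hba-a1 and Hba-a2 shared 67.5% and 86.9% of their windows with each other, and Hbb-bs shared 65.8% with Hbb-bt. The calls of Hba-a1 and Hba-a2 are therefore not independent. Hbb-bs fell from 3706 and 3411 to 2074 and 2076 (-0.78 ± 0.07, adjusted p = 0.0123). Hba-a1 fell from 2835 and 2675 to 1552 and 1740 (-0.74 ± 0.08, adjusted p = 0.0188), and Hba-a2 from 1552 and 1433 to 878 and 974 (-0.69 ± 0.08, adjusted p = 0.0272). Alas2, the erythroid enzyme of haem synthesis, stood at 120 and 128 against 79.3 and 90.5 and was not called. The summed level of the list was 10048 and 9448 in litter m1 and 6390 and 6564 in litter m3. The Fezf2+/+ libraries of litter m1 differed from each other on this measure, at 6850 and 9664.

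All 12 endothelial markers were lower in litter m3, none was called, and 4 had an unadjusted p under 0.05 (6.55% of all tested genes were lower at that p). Their median was -0.14 and their summed level was 4692 and 4430 against 3910 and 4181. Abcb1a, a transporter of the blood-brain barrier, stood at 210 and 259 against 142 and 163 (-0.62 ± 0.15, adjusted p = 0.134), and Pecam1, an adhesion molecule of the vessel wall, at 402 and 396 against 314 and 336 (-0.29 ± 0.09, adjusted p = 0.211). Adgrl4, an adhesion receptor of endothelial cells, was outside the list and fell from 470 and 456 to 251 and 262 (-0.85 ± 0.09, adjusted p = 0.0188). Lpl, the lipoprotein lipase, fell from 5591 and 6205 to 2641 and 2980 (-1.07 ± 0.09, adjusted p = 0.00858). It was the most abundant gene to fall by more than 2-fold, and the Fezf2-/-; Fezf2-EnR library of litter m3 held 2325.

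Genes of RNA processing were among those that rose. Rsrp1, an arginine- and serine-rich protein, rose from 285 and 308 to 851 and 775 (1.45 ± 0.09, adjusted p = 0.00402). Clk1, the kinase that phosphorylates SR splicing factors, rose from 307 and 351 to 686 and 625 (0.99 ± 0.10, adjusted p = 0.0178). Aqr, an RNA helicase that binds introns in the spliceosome, rose from 764 and 783 to 1493 and 1276 (0.84 ± 0.09). Srek1, a splicing regulator, rose by 0.66 ± 0.08 and Luc7l3, a component of the U1 particle, by 0.49 ± 0.07. Of 24 SR protein, Clk and Luc7l genes, a list drawn up after the values were seen and so no test of the group, 4 were called (0.438% of all tested genes were), 18 were higher and 6 lower, and the median was 0.08 here and -0.06 in the other genotypes. Srsf5, an SR protein, stood at 3789 and 3747 against 2941 and 2910 (-0.37 ± 0.06, adjusted p = 0.0827), so members of the list moved in both directions. Mettl16, an RNA methyltransferase, and Ppwd1, a spliceosome-associated isomerase, rose by 0.69 ± 0.07 and 0.98 ± 0.12.

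Srp9, a subunit of the signal recognition particle, rose from 369 and 417 to 798 and 765 (0.99 ± 0.09, adjusted p = 0.0132), with 729 in the Fezf2-/-; Fezf2-EnR library of litter m3 and 379 to 436 in the libraries of litters m1 and m2 from the other genotypes, so that litter m3 stood apart. Ipo9, a nuclear import receptor, fell from 4226 and 4325 to 2458 and 2652 (-0.74 ± 0.07, adjusted p = 0.0132), with 2588 and 4255 to 5286 in the same libraries. Mypn, a sarcomere protein, fell from 162 and 196 to 50.2 and 63.1 (-1.65 ± 0.18) but was also low in litter m2, at 28.5 and 25.1.

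No gene listed for neuronal maturation was called by limma, and DESeq2 called 2. Of 20 maturation genes, which encode mature synaptic proteins, neurofilaments and ion channels, 15 were higher in litter m3, at a median of 0.15, against 0.003 over all genes tested. Scn1a, the sodium channel of mature neurons, stood at 315 and 352 against 497 and 534 (0.63 ± 0.10, adjusted p = 0.0623). DESeq2 called Scn1a, with adjusted p = 0.0159. Ddn, a postsynaptic protein, and Scn2b, a sodium channel subunit, were outside the list and rose from 712 and 627 to 1119 and 1444 (0.93 ± 0.13, adjusted p = 0.0489) and from 179 and 217 to 366 and 404 (0.96 ± 0.13, adjusted p = 0.0403). For the maturation list, library bc207 alone stood above the rest, with a median deviation of 0.20 from the mean of the 4 libraries; library bc204 of the same litter stood at -0.04.

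Of 14 immature neuron genes 13 were lower in litter m3, at a median of -0.09, and none was called. Tubb3, the neuronal tubulin, stood at 39652 and 38937 against 36758 and 36040 (-0.11 ± 0.09, adjusted p = 0.594), and Sox4, a transcription factor of newborn neurons, at 20963 and 22375 against 19306 and 18252 (-0.21 ± 0.08, adjusted p = 0.305). The 20 proliferation genes had a median of -0.03 and no call by limma (edgeR and DESeq2 each called 1, Mcm6), and the libraries of litter m3 lay on opposite sides, bc204 at 0.23 and bc207 at -0.29. Mcm6, a subunit of the replicative helicase, came closest to a call, at 904 and 954 against 664 and 623 (-0.53 ± 0.08, adjusted p = 0.0575). The 5 tested intermediate progenitor genes, Eomes among them at 120 and 108 against 119 and 59.0, had no call.

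Markers of neighbouring brain regions set library bc204 apart from its littermate. All 15 tested striatal neuron markers were higher in litter m3, at a median of 0.79, and none was called. Their summed level was 5045 and 4315 in litter m1, 9137 in bc204 and 4531 in bc207. Drd2, the dopamine receptor of indirect pathway neurons, stood at 41.4 and 29.2 in litter m1, at 174 in bc204 and at 25.8 in bc207. Penk, which encodes enkephalin, stood at 86.1 and 46.9, then at 337 and 67.3, and Isl1, a transcription factor of striatal neurons, at 20.7 and 4.17, then at 139 and 2.49. Only bc204 was high in each case, so the positive median of this list was the value of 1 library. The Fezf2-/-; Fezf2-EnR library of litter m3 held 102 of Drd2 and a sum of 7211, the highest of the other 5 libraries, which otherwise held 4839 to 5484. Without bc204, the comparison called 294 genes in place of 71 and kept 68 of them.

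Septal and hypothalamic markers had a median of 0.45, with 5 of 7 higher, and summed to 369 and 398 in litter m1, 521 in bc204 and 403 in bc207. Olfactory bulb markers summed to 373 and 428, then to 516 and 385, so that bc204 was again highest. Thalamic markers summed to 2549 to 3048, with a median of -0.06 over 7. Of 10 choroid plexus markers 1 passed the filter, and the cortical gene Tbr1 stood at 5660 to 6783. Of 16 listed meningeal fibroblast markers 10 were tested and 8 were lower, at a median of -0.28, and none was called. Library bc205 held the highest sum, 2082, against 1462 to 1621 in the other 3.

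Genes that Fezf2 is known to shape had no call by limma. Of the 22 genes followed in the study, 12 were higher and 10 lower in litter m3, at a median of 0.002. Bcl11b, the transcription factor of subcerebral neurons, stood at 3591 and 2821 against 5287 and 4193 (0.56 ± 0.14, adjusted p = 0.152). Without bc204 the difference was 0.40. Btbd3, which directs dendrites, stood at 2421 and 1883 against 2931 and 3073 (0.49 ± 0.12, adjusted p = 0.134). DESeq2 called Bcl11b and Btbd3, with adjusted p = 0.00421 and 0.0119. Sema3e, a guidance factor of subcerebral neurons, stood at 97.0 and 93.8 against 151 and 166 (0.72 ± 0.14, adjusted p = 0.0947), below the 179 to 271 of the other genotypes in both litters. Foxp2, a transcription factor shared by corticothalamic and striatal neurons, stood at 276 and 224, then at 636 in bc204 and 161 in bc207.

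The 10 tested subcerebral genes were higher in litter m3 in 8 cases, at a median of 0.25, with 5 higher at an unadjusted p under 0.05 (9.28% of all tested genes were) and none called. The 14 upper layer and callosal genes were lower in 12 cases, at a median of -0.14, with none called by limma and 3 by DESeq2. Kcnh1, a potassium channel, came closest, at 1172 and 1270 against 880 and 926 (-0.43 ± 0.08, adjusted p = 0.0862). Of 18 interneuron genes 14 were higher, at a median of 0.14: Gad1, the GABA-synthesising enzyme, stood at 1515 and 1433 against 1998 and 1997 (0.44 ± 0.07, adjusted p = 0.0578), a difference that DESeq2 called with adjusted p = 0.00579.

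Further lists had no call by limma. DESeq2 called 1 gene in each of the immediate early, hypoxia response, nuclear retained and nuclear respiratory chain lists. Their medians were 0.05 for 12 radial glia genes, 0.05 for 10 astrocyte genes, 0.05 for 11 oligodendrocyte lineage genes, -0.08 for 10 pericyte and smooth muscle markers and -0.02 for 6 subplate genes. Corticothalamic genes had a median of 0.003 over 11, cortical area genes of 0.07 over 13, hippocampal and cortical hem markers of 0.07 over 6, and olfactory bulb markers of 0.03 over 4. The 25 immediate early genes, which respond to activity, stood at 0.04, the 15 hypoxia response genes at -0.08, the 13 glucocorticoid response genes at -0.004 and the 11 genes of the unfolded protein and amino acid response at 0.18. The 17 circadian clock genes stood at 0.11 and the 5 nuclear retained long RNAs at 0.25. Genes of the respiratory chain stood at -0.02 over 71 encoded in the nucleus and at -0.05 over 13 encoded in mitochondria.

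Short and long transcripts shifted against each other, through library bc207. Across 16201 genes with an annotated length, the log2 difference between litters had a Spearman correlation of 0.22 with transcript length and of -0.03 with GC content, as a description. With the genes divided by length into 5 bins of like size, 37.2% of the bin of shortest transcripts (median 975 bases) were higher in litter m3, and 64.6% of the bin of longest transcripts (median 6667 bases) were. Library bc207 went from a median deviation of -0.07 in the shortest bin to 0.09 in the longest, whereas bc204 went from 0.01 to -0.03, close to bc205 and bc206. Cytosolic ribosomal protein genes, which are short, were lower in litter m3 in 78 of 84 cases, at a median of -0.12, with Rpl35a the only call by limma and edgeR (DESeq2 also called Rpl13a). Their summed level was 377537 and 374905 in litter m1, 369564 in bc204 and 324215 in bc207. With the trends in length and GC content removed from each library, 148 genes were called, 70 of the 71 among them.

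**Figure D3:**
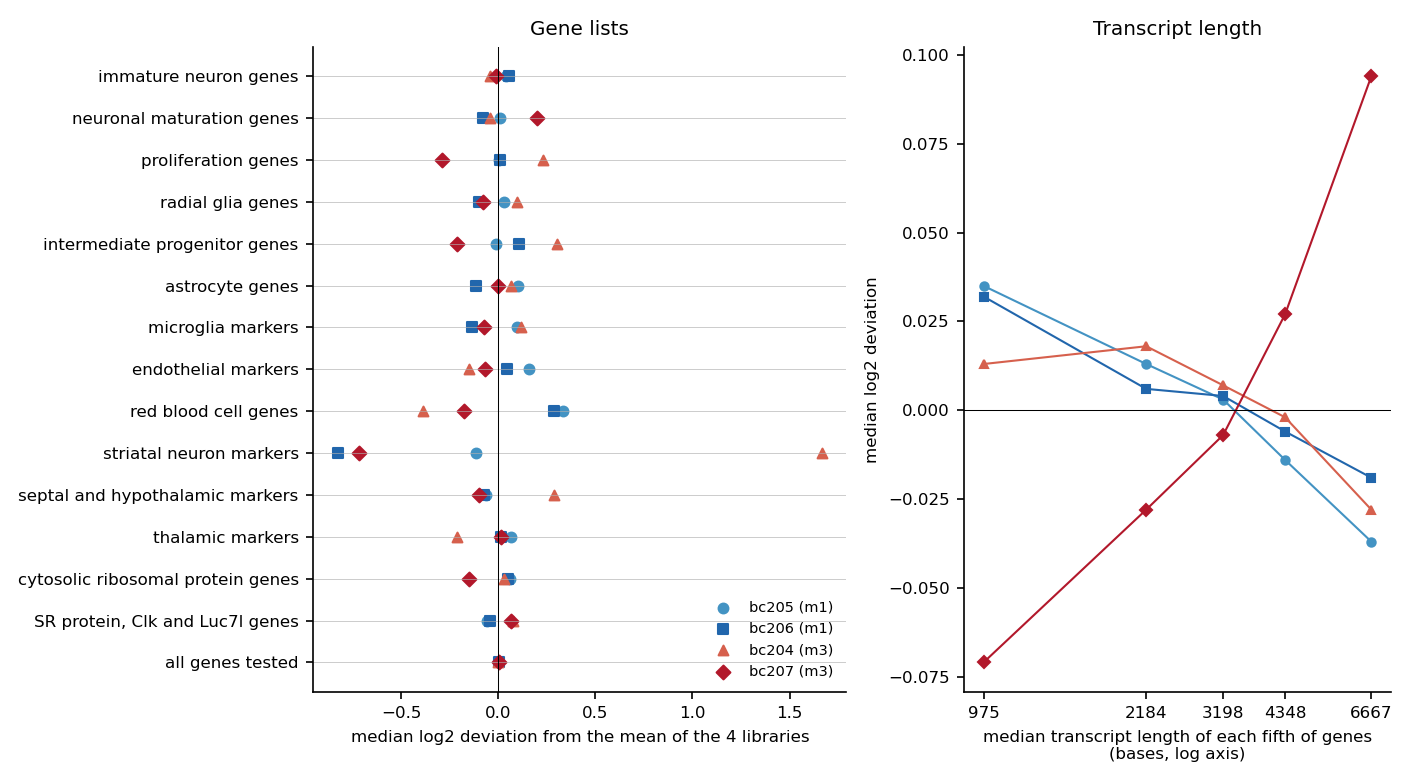
Left, for each gene list, the median over its tested genes of the log2 deviation of a library from the mean of the 4 Fezf2-/- libraries; each marker is 1 library. Right, the same median for the 5 bins of all genes by transcript length (bases, log axis). Library bc204 stands at 1.67 for striatal neuron markers, library bc207 rises with length from -0.07 to 0.09, and red blood cell genes separate the litters.

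The litter difference was then looked up in the 5 libraries of the other genotypes, none of which entered the comparison above. They give litter m3 minus litter m1 through litter m2, as the Fezf2-/-; Fezf2-EnR difference between m3 and m2 plus the Fezf2+/+ difference between m2 and m1. Of the 71 called genes, 64 had the same direction there (90.1%), against 65.2% of all tested genes, and 45 of the 49 called genes with under 50% of their windows shared did. The arms of litter m2 and of litter m3 hold 1 library each there, so the differences are given without a test. Across all tested genes the differences had a Pearson correlation of 0.43 and a Spearman correlation of 0.41, and across the 71 they had 0.82 and 0.81. The libraries of both sides share their litters, and genes are not independent replicates.

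The Fezf2+/+ libraries of litter m1 were nearer to the Fezf2-/- libraries of litter m1 than to those of litter m3 for 63 and 64 of the 71 genes on the log2 scale. The Fezf2-/-; Fezf2-EnR library of litter m3 was nearer to litter m3 for 62. The Fezf2+/+ and Fezf2-/-; Fezf2-EnR libraries of litter m2 were nearer to m3 for 43 and 44. This differed by gene: in litter m2 Hist1h2ao stood at 138 and 162, like litter m3, and BC023719 at 217 and 201, like litter m1. Over all tested genes the libraries of litter m1 were nearer to m3 for 34.4% and 33.3% of genes, those of litter m2 for 51.8% and 51.2% and that of litter m3 for 64.1%.

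**Figure D4:**
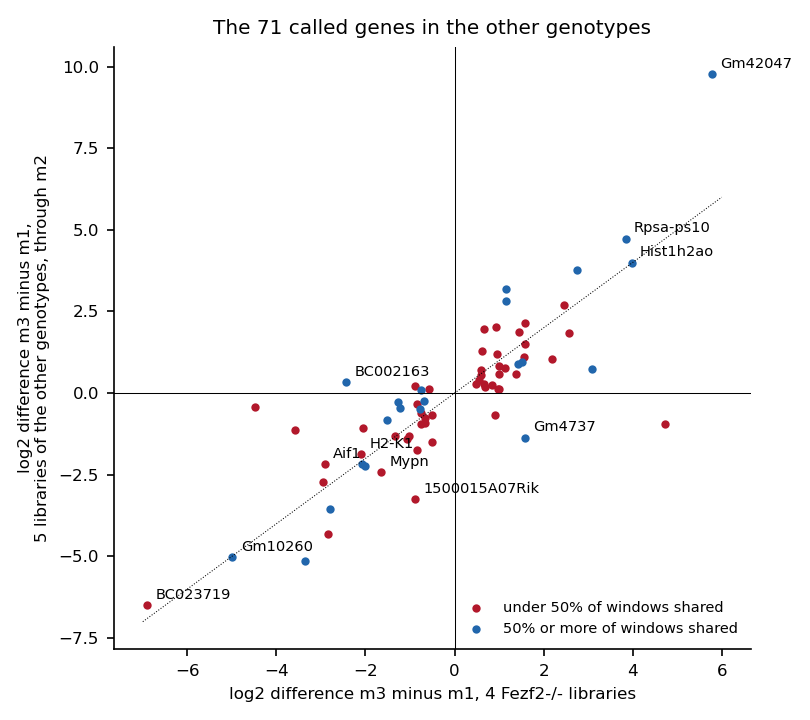
Log2 difference of litter m3 minus litter m1 for the 71 called genes in the 4 Fezf2-/- libraries (x axis) and, through litter m2, in the 5 libraries of the other genotypes (y axis); the dotted line marks equal values. Red and blue points share under 50% and 50% or more of their 50-base windows with another gene; 64 of the 71 points have the same sign on both axes, and BC002163 and Gm4737 are among the exceptions.

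Whether the litter difference itself differed between Fezf2-/- and the other genotypes was tested in limma with all 9 libraries, where the groups of 1 library are assumed to vary like the pairs. It did for 11 of 16197 genes (0.0679%), 7 of which shared 50% or more of their windows with another gene, and 1 of the 71 was among them. That gene was 1500015A07Rik, annotated as antisense, which fell from 472 and 512 to 267 and 265 in Fezf2-/- (-0.88 ± 0.09, adjusted p = 0.0187) and stood at 506 and 546 in the Fezf2+/+ libraries of litter m1 and at 47.8 in the Fezf2-/-; Fezf2-EnR library of litter m3.

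The sex of the pups did not separate these litters. All 4 Fezf2-/- libraries expressed genes of the Y chromosome and held 0 to 3.27 of Xist, the RNA of the inactive X chromosome. Eif2s3y, a translation factor encoded on the Y chromosome, stood at 880 and 990 against 702 and 615 (-0.51 ± 0.10, adjusted p = 0.10) and Ddx3y, an RNA helicase, at 1499 and 1600 against 1211 and 1267 (-0.32 ± 0.07, adjusted p = 0.119). Of the other 5 libraries, 3 expressed Xist at 7895 to 12203 and held 0 to 4.22 of Eif2s3y and Ddx3y, so sex and litter cannot be told apart in part of the comparison through litter m2. With genes on X and Y left out, the same 71 genes were called.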

How the data were processed

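RNA was isolated from the cortex of each pup at postnatal day 0 and sequenced from polyadenylated libraries. The deposited table holds a signal per gene and library: read counts that the authors divided by a DESeq size factor. The submitters' processing notes name STAR, Bowtie, DESeq and mm10; their versions, the counter, its use of strand and the annotation are not given in the sources used here. Between 20 and 200, 100% of the values fell on a multiple of a fixed step per library, within the printed rounding. Over all values, 100% did so within 0.05. This gave back the reads, 18716575 to 25127623 per library. Groups came from the labelled genotype and litter. Genes with a mean of at least 10 over the 4 Fezf2-/- libraries were tested in limma 3.58.1 (R 4.3.3) on log2(value + 1), with a trended prior and Benjamini-Hochberg adjustment. The fit had 2 residual degrees of freedom and a prior worth 4.85. Fold changes on this scale understate the change of low genes. edgeR 4.0.16 and DESeq2 1.42.0 on the recovered reads were alternatives. The litter difference was compared with that of the other genotypes in a fit of all 9 libraries with 3 residual degrees of freedom. GENCODE M21 (GRCm38) gave names and positions for 24595 of 24624 identifiers, and its names replace clone names.

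Genes named were the 12 largest rises and the 12 largest falls among called genes with a mean of at least 50, called members of the lists, up to 4 members of each list described with the largest differences, sex-linked genes and genes followed in the study. Other genes named were chosen after their values were seen, as were the SR protein list and the 50-base window measure. Some genes that these rules name are not reported here. The members and lists were chosen with earlier results of these data known. Python 3.11.15, pandas 2.3.3, numpy 2.4.6 and scipy 1.17.1 were used for tables.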

Additional observations from a re-analysis of the deposited data

Results flagged for a closer look

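The litter difference of 1500015A07Rik differed between genotypes by a test of that difference itself: 2.37 ± 0.21 on the log2 scale (limma, all 9 libraries, adjusted p = 0.0122). It stood at 472 and 512 in litter m1 and at 267 and 265 in litter m3 of Fezf2-/-, a difference of -0.88, and both Fezf2-/- libraries of litter m3 were lower. In the other genotypes it stood at 506 and 546 in litter m1, at 280 and 248 in litter m2 and at 47.8 in litter m3, a difference of -3.26 through litter m2. The litter m3 value of the other genotypes is a single library.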

How the results depend on the processing

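The count of 71 called genes stayed within 1.5 times under pseudocounts of 0.1 and 10, a mean of at least 50, no filter, TMM and median-ratio rescaling, edgeR and without X and Y, at 49 to 74. It was 230 with 1 mean per genotype and litter over 9 libraries, 673 with genotype and litter as additive terms, 238 with DESeq2, 148 with length and GC trends removed and 2568 at an unadjusted p under 0.05; the cause was not tested. Leaving out 1 library gave 70 to 294 calls: 294 without bc204, 94 without bc205, 70 without bc206 and 118 without bc207. None of the 71 changed sign in these alternatives, and 36 were called without each library in turn. The share of calls that were higher in litter m3 was 50.7%, and it became 65.1% in the additive fit, 62.2% without bc204, 67.0% without bc205 and 64.3% without bc206. The count of 11 genes whose litter difference differed between genotypes was 1459 at an unadjusted p under 0.05 and otherwise 8 to 12, and 2 to 21 with 1 library left out: 4 without bc205, 4 without bc206, 21 without bc207 and 2 without the Fezf2+/+ library bc201. No paired analysis was possible because the litters share no replicate numbers. With 2 libraries per litter, litter and any other difference between these pups cannot be told apart.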
